A study of Mus musculus with 12 samples.

Results

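The RNA genes followed here make RNAs with structural or catalytic roles, or that lie over ribosomal RNA sequence: Rny3, Rny1, Rpph1, Rmrp, Rn7s6, Gm26917 and Gm42418. They are 7 of the 29454 rows of the deposited expression table and were picked by symbol because most of them head it by level, so the levels below are a description. The table gives an FPKM value (fragments mapped, divided by transcript length and by library depth) for each gene in 12 libraries of mouse hippocampal RNA. The groups compared were littermate pups of the strain C57/BL6. The 3 WT libraries carry neither transgene, the 3 CAMK libraries carry CaMKIIα-tTA, and the 6 CX3CL1-ct libraries carry CaMKIIα-tTA together with Tg-CX3CL1-ct, which encodes the C-terminal end of the chemokine CX3CL1. The tTA driver uses the CaMKIIα promoter, which is known for excitatory neurons of the forebrain, so the 9 CAMK and CX3CL1-ct libraries share it. The sample labels give postnatal day 4 and the series text gives postnatal day 0. The labels do not state that libraries come from separate animals, so p-values measure only the spread between libraries. The RNA was total RNA, depleted of ribosomal RNA before the libraries were made.

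Y RNAs, of which Rny1 and Rny3 encode the mouse forms, are short RNA polymerase III transcripts that bind the Ro60 protein and, through their 3′ end, the La protein. Rpph1 is the RNA subunit of RNase P, which trims the 5′ ends of transfer RNA precursors, and Rmrp is the related RNA of RNase MRP, which acts in ribosomal RNA processing. Rn7s6 is a copy of 7SL RNA, the RNA scaffold of the signal recognition particle. Gm26917 and Gm42418 are gene models on a stretch of chromosome 17 that carries ribosomal DNA sequence, and signal in such rows of depleted libraries is usually read as ribosomal RNA that depletion left behind.

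Rny3, Rpph1, Rny1 and Rmrp fitted the description as leaders of the table and the others did not. By mean FPKM over the 12 libraries Rny3 ranked 1, Rpph1 3, Rny1 4 and Rmrp 5. Rank 2 was Rn7sk, the 7SK RNA, which sequesters the elongation factor P-TEFb. Gm26917 ranked 21, just below the minor spliceosomal RNA Rnu12 (mean FPKM 1496.47 against 1498.54). Gm42418 ranked 293 and Rn7s6 ranked 3550, so the word abundant does not describe these genes in this table.

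The sequences show how short the leading RNAs are and what the relatives share. Both Y RNAs come from 1 stretch of chromosome 6 on opposite strands, Rny3 at chr6:47781624-47781725 on the plus strand (102 nt) and Rny1 at chr6:47788069-47788180 on the minus strand (112 nt), in GENCODE M21 on GRCm38 (mm10). Capitals in these lines mark runs of at least 8 letters that occur in both RNAs.
Rny3: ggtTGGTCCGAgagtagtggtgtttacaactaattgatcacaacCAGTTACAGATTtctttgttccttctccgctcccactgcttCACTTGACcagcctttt
Rny1: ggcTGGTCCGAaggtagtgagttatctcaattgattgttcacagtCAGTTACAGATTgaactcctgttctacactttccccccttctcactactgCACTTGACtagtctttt
The shared runs cover 28 letters of each Y RNA and the longest has 12. Both transcripts end in TTTT on their own strand, as do 1.34% of the 141767 transcripts of the annotation. Rmrp lies at chr4:43492788-43493058 on the minus strand (271 nt) and Rpph1 at chr14:50807449-50807767 on the minus strand (319 nt, of which the first 300 are printed), and capitals mark the runs of at least 8 letters that these RNAs have in common.
Rmrp: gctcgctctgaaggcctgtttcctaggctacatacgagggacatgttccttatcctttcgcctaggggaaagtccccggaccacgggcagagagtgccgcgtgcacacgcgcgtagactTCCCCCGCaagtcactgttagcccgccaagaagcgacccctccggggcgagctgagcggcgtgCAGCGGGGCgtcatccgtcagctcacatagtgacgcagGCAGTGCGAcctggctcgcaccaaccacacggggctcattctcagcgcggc
Rpph1: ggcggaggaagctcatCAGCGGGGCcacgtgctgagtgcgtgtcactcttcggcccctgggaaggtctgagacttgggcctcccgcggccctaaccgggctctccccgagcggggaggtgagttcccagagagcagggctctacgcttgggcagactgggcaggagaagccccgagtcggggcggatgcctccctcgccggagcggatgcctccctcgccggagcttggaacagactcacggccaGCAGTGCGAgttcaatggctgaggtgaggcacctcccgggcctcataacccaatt
These runs cover 26 letters of each RNA and the longest has 9.
Gm26917 (3329 nt, chr17:39843013-39846341) and Gm42418 (1831 nt, chr17:39846958-39848788) both lie on the plus strand. The first 120 letters of Gm42418 are shown as the sequence of a row that RefSeq lists as a synonym of the 18S ribosomal RNA gene Rn18s-rs5.
Gm42418: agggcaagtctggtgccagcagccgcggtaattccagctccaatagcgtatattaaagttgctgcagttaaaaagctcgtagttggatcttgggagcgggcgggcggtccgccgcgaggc
The ribosomal rows were longer than the Y RNAs, Rpph1 and Rmrp, and their GC content was 69.1% (Gm26917) and 60.2% (Gm42418), against 45.1% and 43.8% for Rny3 and Rny1. Rpph1 (67.1%) and Rmrp (64.2%) lay between Gm26917 and the Y RNAs.

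Both Y RNAs were higher in every library with the driver than in every WT library, by 1.36 to 1.39 times in the mean, and both had nearly the same mean in CAMK and CX3CL1-ct. FPKM of Rny3 was 83625, 94729 and 83401 in WT replicates 1 to 3 and 106508, 121438 and 128034 in CAMK replicates 1 to 3, and in CX3CL1-ct it ran from 115287 through a median of 121006 to 130115. The WT libraries were thus the lowest 3, CAMK replicate 1 came next, and the other CAMK values lay within the CX3CL1-ct range. The mean FPKM of Rny3 was 87252 ± 6476 (SD, n = 3) in WT, 118660 ± 11029 (SD, n = 3) in CAMK and 121704 ± 5122 (SD, n = 6) in CX3CL1-ct. FPKM of Rny1 was 13956, 13209 and 12089 in WT, 15342, 18562 and 20104 in CAMK, and 16147 to 20796 with a median of 17600 in CX3CL1-ct. The same order held: no WT library reached the lowest library with the driver, and CAMK and CX3CL1-ct overlapped. The ratio of mean FPKM to WT was 1.39 in CX3CL1-ct and 1.36 in CAMK for Rny3, and 1.38 in both for Rny1. The summed FPKM of 4 thalamic markers split the libraries the same way, with 12.3 to 14.0 in WT against 17.2 to 42.6 in CAMK and 15.1 to 33.1 in CX3CL1-ct, and none of the 4 was at 0. No marker alone split the libraries so. Rora and Lef1 were above WT in every CAMK library, as were 9.22% of all tested genes, but overlapped with WT in CX3CL1-ct. Tcf7l2 and Prkcd overlapped with WT in both groups. The part of these markers in the Y RNA result was not tested. In bulk RNA, fewer cells of a type and less RNA per cell cannot be told apart, and that holds for every difference given here.

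**Figure D1:**
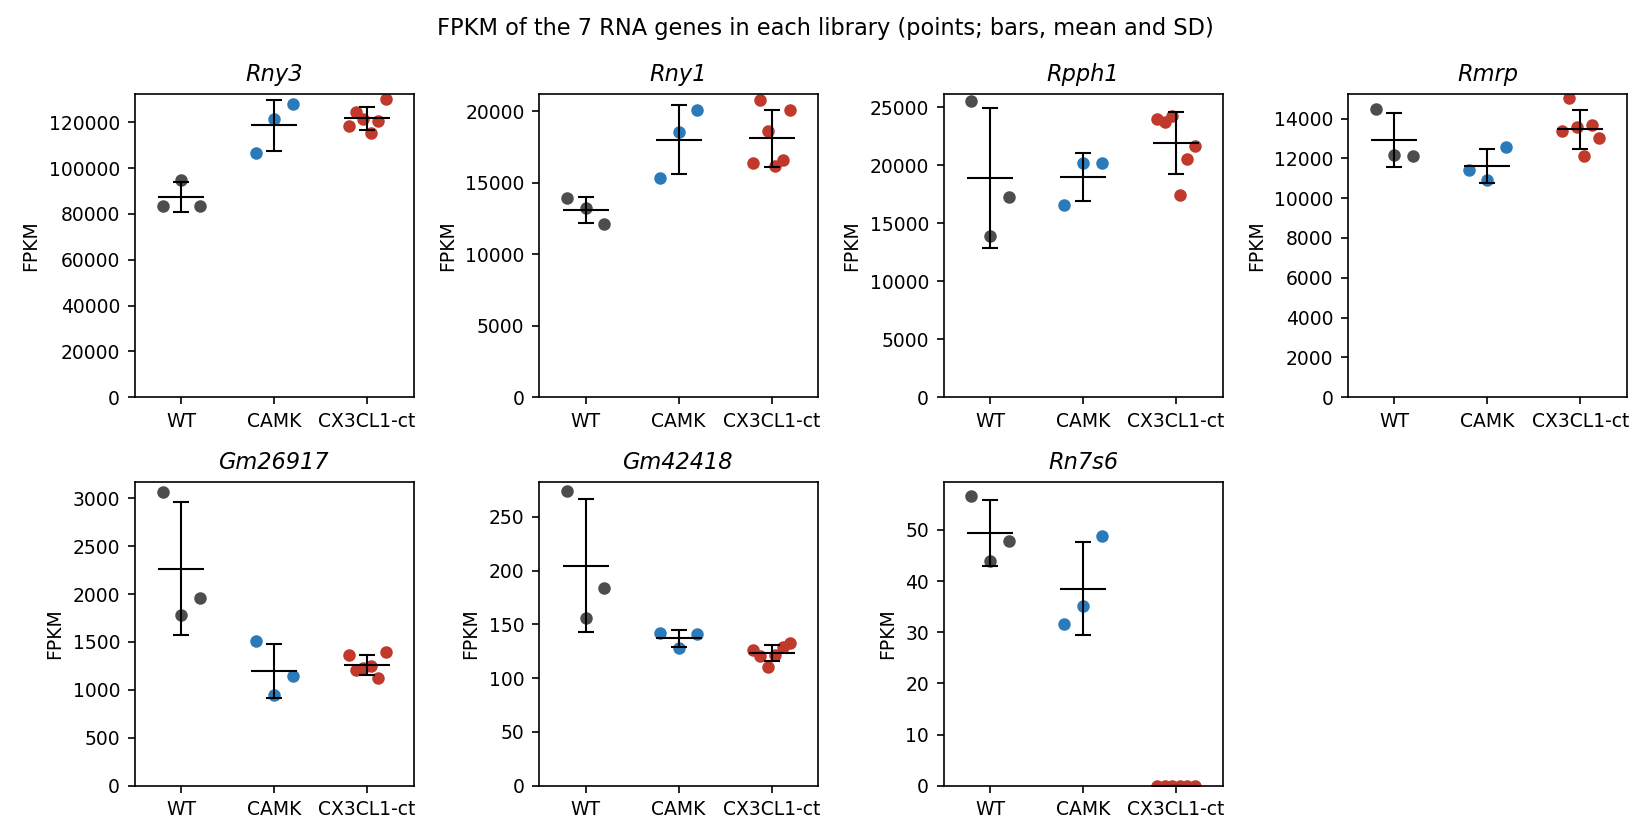
FPKM (linear axes from 0) of each of the 7 RNA genes in each library, by group, with points for libraries and bars for the mean and SD. Rny3 and Rny1 lie higher, and Gm26917 and Gm42418 lower, in all 9 libraries with the driver than in the 3 WT libraries, and Rn7s6 is listed at 0 in the 6 CX3CL1-ct libraries.

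The Y RNA differences did not pass limma's threshold of an adjusted p of 0.05 in any of the 3 comparisons. The difference of Rny3 on the log2(FPKM + 1) scale was 0.48 ± 0.24 (SE) between CX3CL1-ct and WT (limma, adjusted p = 0.452) and 0.44 ± 0.28 in CAMK relative to WT (adjusted p = 0.574). For Rny1 it was 0.46 ± 0.15 (adjusted p = 0.253) and 0.45 ± 0.18 (adjusted p = 0.328). Between CX3CL1-ct and CAMK the differences were 0.04 ± 0.24 for Rny3 (adjusted p = 0.992) and 0.01 ± 0.15 for Rny1 (adjusted p = 0.998). The Rny3 call depends on how limma's prior for the variance is set. With a prior that does not follow the expression level the standard error for CX3CL1-ct against WT was 0.07 instead of 0.24, and the adjusted p was 0.0142. With a robust prior the adjusted p was 0.0326, and in a fit restricted to genes of a mean FPKM of at least 5 it was 0.0495. Some settings widened the standard error instead. It was 0.56 with the replicate number as a block (limma, adjusted p = 0.667) and 8.18 without a filter on low values, with no call in either. Over 25 settings Rny3 passed in 4 for CX3CL1-ct against WT. For CAMK against WT the prior without trend gave 0.44 ± 0.08 (adjusted p = 0.0536). The share of all 16503 tested genes with an adjusted p under 0.05 in CX3CL1-ct against WT was 0.454% as first fitted, 0.448% with the prior without trend, 0.521% with the robust prior and 0.143% of genes of a mean FPKM of at least 5. It was 0.358% in CAMK against WT and 0.0606% in CX3CL1-ct against CAMK.

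**Figure D2:**
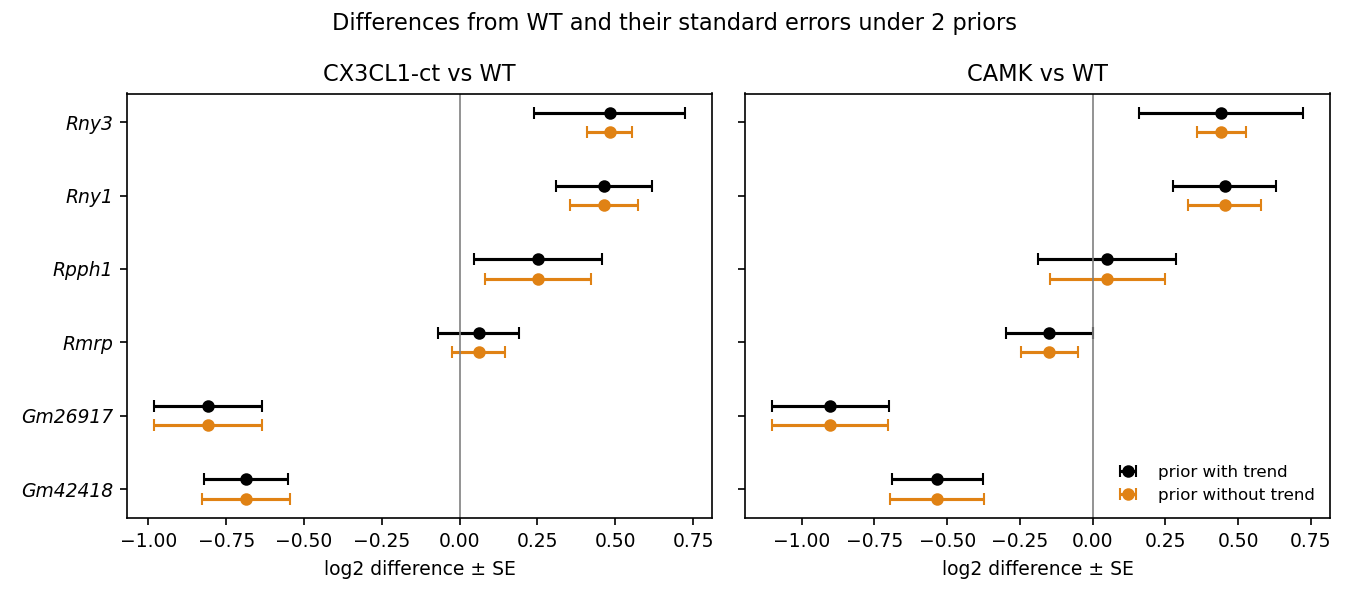
Log2 differences from WT with their standard errors (bars), for CX3CL1-ct (left) and CAMK (right), under limma's prior with and without a trend in expression level. The points coincide, and the bar of Rny3 in CX3CL1-ct against WT is 0.24 with the trend and 0.07 without it. Rn7s6 is left out.

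Read against the table as a whole, both Y RNAs belong to the 2.71% of tested genes with all 9 driver libraries above all WT libraries. Taken singly, 4.67% of genes had all CX3CL1-ct libraries above all WT libraries, and 9.22% had all CAMK libraries above them. These comparisons share the WT libraries. The Y RNAs kept a steady proportion to each other, with an FPKM ratio of Rny3 to Rny1 of 5.98 to 7.27 over the 12 libraries. Their log2 values correlated over the 12 libraries with Pearson's r of 0.92 and Spearman's rho of 0.96, and the deviations from the group means with r of 0.74. These are descriptions over libraries that share groups and scaling.

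The RNA subunits of RNase P and RNase MRP overlapped between the groups and passed the threshold in no comparison as deposited. FPKM of Rpph1 was 25535, 13874 and 17233 in WT, 16591, 20202 and 20196 in CAMK, and 17384 to 24241 with a median of 22702 in CX3CL1-ct. WT replicate 1 held the highest value of all libraries and WT replicate 2 the lowest, so the WT range contained every other library. FPKM of Rmrp was 14497, 12148 and 12100 in WT, 11415, 10908 and 12556 in CAMK, and 12096 to 15045 with a median of 13460 in CX3CL1-ct. For Rmrp, 5 of the 6 CX3CL1-ct libraries were above all CAMK libraries, and WT overlapped with both groups. The log2 difference between CX3CL1-ct and CAMK was 0.20 ± 0.21 (SE) for Rpph1 (limma, adjusted p = 0.921) and 0.21 ± 0.13 for Rmrp (adjusted p = 0.824). Against WT it was 0.25 ± 0.21 and 0.06 ± 0.13 in CX3CL1-ct (adjusted p = 0.643 and 0.883), and 0.05 ± 0.24 and -0.15 ± 0.15 in CAMK (adjusted p = 0.961 and 0.745). For Rpph1 these values turn on single WT libraries. In CX3CL1-ct against WT the difference was 0.49 without WT replicate 1 and 0.05 without WT replicate 2 (adjusted p = 0.263 and 0.977), and in CAMK against WT it was 0.29 and -0.15 (adjusted p = 0.557 and 0.907). A p that misses the threshold does not show that these RNAs are alike in the groups.

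Rpph1 was above Rmrp in each of the 12 libraries, with an FPKM ratio of 1.14 to 1.85, lowest in WT replicate 2. Rpph1 was also above Rny1 in each library, though the ranges of both genes overlap widely. The order of Rny1 and Rmrp changed with the library, with Rmrp higher in WT replicates 1 and 3 and Rny1 higher in the others. Rny3 stood apart from these, since its lowest library (83401 FPKM) exceeded the highest value of Rpph1 (25535). Over the 12 libraries Rpph1 and Rmrp correlated with r of 0.70 and rho of 0.75, and with r of 0.73 after group means were removed.

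Near both genes the annotation has other transcripts. Ccdc107 overlaps Rmrp on the other strand, and Parp2, which encodes a poly(ADP-ribose) polymerase, starts 74 nt from Rpph1 on the other strand. Ccdc107 ranged from 11.4 to 17.4 FPKM and Parp2 from 7.65 to 9.86 FPKM over the libraries, and neither passed the threshold in any comparison. Ccnb1ip1 overlaps Rpph1 on the same strand and was at most 0.150 FPKM. Whether strand was used in the counting is not given in the sources used here. A lincRNA gene that the annotation also names Rmrp overlaps Rmrp on the same strand, with starts 5 nt apart. It is a second model at the same place, matches Rmrp at 100% identity, and its ID is not a row of the table.

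The ribosomal rows moved the other way from the Y RNAs. Gm26917 and Gm42418 were lower in each of the 9 libraries with the driver than in each WT library, and their CAMK and CX3CL1-ct means were close. FPKM of Gm26917 was 3062, 1781 and 1957 in WT, 1506, 948 and 1143 in CAMK, and 1123 to 1391 with a median of 1237 in CX3CL1-ct. WT replicate 1 stood highest by a wide margin, and CAMK replicate 1 was the highest of the driver libraries. FPKM of Gm42418 was 274, 156 and 184 in WT, 142, 128 and 141 in CAMK, and 111 to 133 with a median of 124 in CX3CL1-ct. WT replicate 1 was again the highest and the lowest WT library exceeded the highest CAMK library by a small gap. The ratio of mean FPKM to WT was 0.556 in CX3CL1-ct and 0.529 in CAMK for Gm26917, and 0.603 and 0.670 for Gm42418.

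As deposited, these differences did not pass the threshold. For Gm26917 the log2 difference was -0.81 ± 0.17 (SE) in CX3CL1-ct against WT (limma, adjusted p = 0.0784) and -0.90 ± 0.20 in CAMK against WT (adjusted p = 0.0837). Under a replicate block the CAMK difference of Gm26917 had an adjusted p of 0.0247, where 2.97% of genes passed. The CAMK and WT pairs of this block were chosen from these same data, since the sample titles give only numbers. The block put CX3CL1-ct against WT at 0.0285 for Gm26917 and 0.0456 for Gm42418, where 3.27% passed, although those replicate numbers did not meet the rule for pairs. CX3CL1-ct replicates 4 to 6 share no number with WT, so under the block they add nothing to this comparison. Without the block the Gm42418 difference from WT was -0.69 ± 0.14 in CX3CL1-ct (limma, adjusted p = 0.0557) and -0.53 ± 0.16 in CAMK (adjusted p = 0.188). Between CX3CL1-ct and CAMK the differences were 0.09 ± 0.17 for Gm26917 (adjusted p = 0.963) and -0.15 ± 0.14 for Gm42418 (adjusted p = 0.898). The share of tested genes with all driver libraries below all WT libraries was 1.10%. It was 1.38% for the CX3CL1-ct libraries alone and 8.80% for the CAMK libraries alone.

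WT replicate 1 sets part of the size of these differences. Without it the Gm26917 difference was -0.57 in CX3CL1-ct (adjusted p = 0.131) and -0.66 in CAMK (adjusted p = 0.121). Without it the Gm42418 difference in CX3CL1-ct was -0.46 (adjusted p = 0.0510), and without WT replicate 2 it was -0.86 (adjusted p = 0.0210). The Gm42418 difference in CAMK was -0.30 without WT replicate 1 (adjusted p = 0.176) and -0.71 without WT replicate 2 (adjusted p = 0.123). WT replicate 1 also had the highest Rpph1 value and the highest summed FPKM of 4 choroid plexus markers, 2307 against 98.3 to 1133 in the other libraries. That sum was 301 to 2307 in WT, 98.3 to 888 in CAMK and 149 to 618 in CX3CL1-ct, nearly all of it Ttr, and none of the 4 markers was at 0. The part of choroid plexus RNA in the result was not tested.

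The ribosomal locus holds 2 further rows, and the file gives Gm42418, AY036118 and Rn18s-rs5 the same coordinates. Rn18s-rs5 was 36.7, 17.8 and 19.3 FPKM in WT, 29.97, 14.7 and 13.3 in CAMK, and 17.1 ± 1.45 (SD, n = 6) in CX3CL1-ct. Its log2 difference from WT was -0.43 ± 0.25 (SE) in CX3CL1-ct (limma, adjusted p = 0.502), and WT and the driver libraries overlapped. AY036118 was 58.2 ± 17.4 (SD, n = 3) in WT, 53.3 ± 35.6 (SD, n = 3) in CAMK and 30.05 ± 13.1 (SD, n = 6) in CX3CL1-ct, with an adjusted p of 0.458 against WT. Because these models overlap, reads could be split between them and each row's value is uncertain. The ratio of Gm26917 to Gm42418 was 7.41 to 11.4 over the libraries, with CAMK replicates 2 and 3 lowest. These rows correlated with r of 0.91 and rho of 0.66, and Rny3 and Gm26917 ran opposite with r of -0.87 and rho of -0.71 over the 12 libraries. After group means were removed the latter r was -0.51.

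Rn7s6, the lowest of the 7, had values above 0 in WT and CAMK only. It was 56.6, 43.9 and 47.8 FPKM in WT and 31.6, 35.2 and 48.8 in CAMK, and it is listed at 0 in all 6 CX3CL1-ct libraries. The WT and CAMK ranges overlapped, and both were apart from CX3CL1-ct. It passed the filter on low values only through these groups, so its comparison with CX3CL1-ct is a description, with no test and no fold against a group listed at 0. The difference between CAMK and WT was -0.37 ± 0.14 on the log2 scale (SE; limma, adjusted p = 0.301).

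Rn7sk showed the same pattern at a far higher level. It was 86660, 85042 and 85412 FPKM in WT, 90862, 68040 and 81090 in CAMK, and listed at 0 in each CX3CL1-ct library. Every cell uses 7SK RNA, so the listed zeros need not be absence of the RNA, and a failed estimate cannot be told apart from it in a table without counts. Of the tested genes, 14 are listed at 0 in the whole CX3CL1-ct group, and 6 of these are above 0 in every WT and CAMK library. For comparison, 57 are listed at 0 in all WT and 55 in all CAMK libraries, with 1 of each above 0 in every other library. Proteins of the signal recognition particle and of its receptor were measured through 7 tested genes, of which 0 passed limma's threshold in any comparison (at an unadjusted p under 0.05, 1 between CX3CL1-ct and CAMK, 2 between CX3CL1-ct and WT, and 0 between CAMK and WT). The shares of all tested genes at that unadjusted p were 6.37%, 12.3% and 12.4%. The most abundant, Srp14, differed by 0.18 ± 0.08 (SE, log2) between CX3CL1-ct and CAMK (limma, adjusted p = 0.775).

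The 7 rows together held 21.4% to 31.7% of the summed FPKM of a library, and the share was lowest in WT and highest in CX3CL1-ct. It was 22.6%, 22.6% and 21.4% in WT, 23.4%, 27.9% and 27.6% in CAMK, and 29.4% to 31.7% with a median of 30.8% in CX3CL1-ct. The groups did not overlap. Most of it was Y RNA, with 15.7% to 17.9% in WT, 18.8% to 22.7% in CAMK and 23.7% to 25.0% in CX3CL1-ct. Rpph1 and Rmrp added 4.32% to 6.70% over all libraries. Gm26917 and Gm42418 added 0.322% to 0.536% in WT, 0.174% to 0.255% in CAMK and 0.222% to 0.262% in CX3CL1-ct.

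The gap between CAMK and CX3CL1-ct in this share went with the denominator. Rn7sk held 13.9% to 14.4% of the sum in WT, 11.02% to 14.0% in CAMK and 0% in CX3CL1-ct. With Rn7sk left out of the sum the share of the 7 rows was 25.0% to 26.3% in WT, 27.2% to 31.5% in CAMK and 29.4% to 31.7% in CX3CL1-ct. CAMK and CX3CL1-ct then overlapped and WT stayed below both. With Rn7sk counted among them, the share was 35.9% to 36.7% in WT, 37.4% to 39.9% in CAMK and 29.4% to 31.7% in CX3CL1-ct, so that the order turned. FPKM is a value per length, and weighting each row by its gene's length gave the 7 rows only 1.61% to 2.12% of the total, with overlapping groups. On that scale the Y RNAs held 0.624% to 0.730% in WT, 0.780% to 0.939% in CAMK and 0.853% to 0.946% in CX3CL1-ct.

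**Figure D3:**
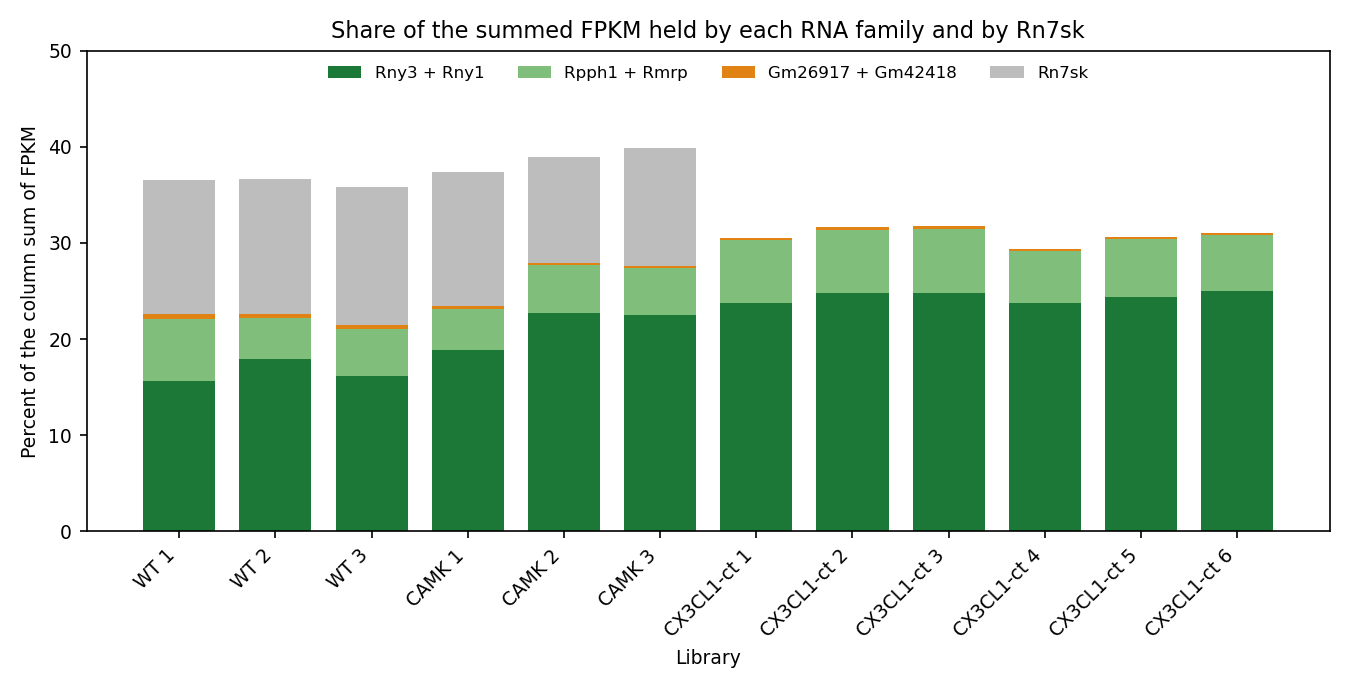
Stacked bars of the percent of each library's summed FPKM (axis from 0) held by the Y RNAs, by Rpph1 with Rmrp, by Gm26917 with Gm42418, and by Rn7sk; Rn7s6 is too small to draw. The Y RNA part grows from 15.7% to 17.9% in WT to 23.7% to 25.0% in CX3CL1-ct, where the Rn7sk part is 0.

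The sum of all FPKM was lowest in CX3CL1-ct, and leaving the 7 rows out widened that gap. The mean sum was 605787 ± 15350 (SD, n = 3) in WT, 641486 ± 21530 (SD, n = 3) in CAMK and 572597 ± 17462 (SD, n = 6) in CX3CL1-ct. Without the 7 rows it was 471135 ± 9050 in WT, 472826 ± 25579 in CAMK, and CX3CL1-ct had 396048 ± 10228. Without Rn7sk as well it was 385430 ± 8236, 392829 ± 14171 and 396048 ± 10228. For CX3CL1-ct against CAMK the exact two-sided permutation p was 0.0238, 0.0238 and 0.738 for these 3 sums (0.0714, 0.0714 and 0.830 after adjustment over 9 tests). Against WT it was 0.0476, 0.0238 and 0.119 (adjusted 0.107, 0.0714 and 0.214). For CAMK against WT the exact permutation p was 0.2, 1 and 0.6, where 3 against 3 libraries cannot go below 0.1. For 6 against 3 the test doubles the smaller tail, so 0.0238 is the smallest p it can give. No adjusted value passed 0.05.

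Which rows enter the sum decides how many genes differ if libraries are brought to a common sum. With the deposited FPKM, limma called 10 genes between CX3CL1-ct and CAMK (2 higher, 8 lower), 75 between CX3CL1-ct and WT (33 higher, 42 lower) and 59 between CAMK and WT (14 higher, 45 lower). The 10 include Rn7sk and Rn7s6, both listed at 0 in CX3CL1-ct. With genes at 0 in a whole group left out, a choice made after seeing the data, limma called 0 between CX3CL1-ct and CAMK. Scaling to the sum of all rows gave 1440 (1430 higher), 579 (524 higher) and 77 (11 higher). Scaling to the sum without the 7 rows gave 7066 (7050 higher), 7436 (7353 higher) and 73 (31 higher). Leaving out Rn7sk too gave 10 (2 higher), 61 (18 higher) and 74 (23 higher), and scaling by the upper quartile 10 (2 higher), 67 (15 higher) and 69 (16 higher).

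**Figure D4:**
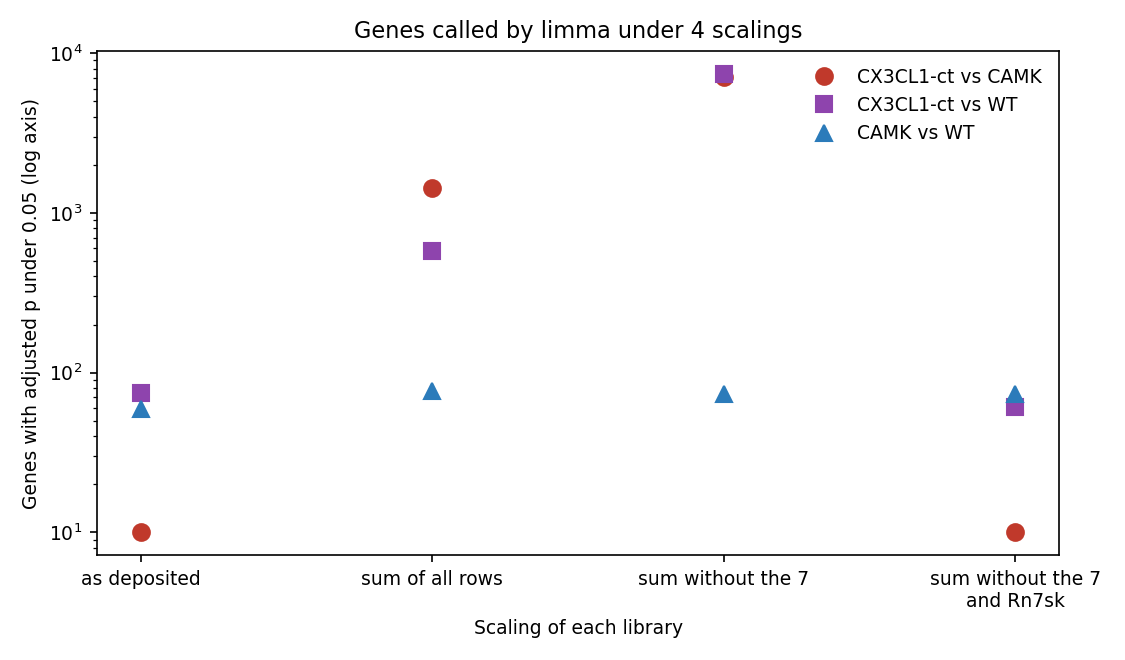
Genes with an adjusted p under 0.05 in limma (log axis) in each comparison, for the deposited FPKM and for libraries scaled to 3 sums. The count for CX3CL1-ct against CAMK is 10 as deposited, 7066 when the 7 rows leave the sum and Rn7sk stays, and 10 when both leave it.

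The scaling moved the whole distribution. The median log2 difference of all tested genes between CX3CL1-ct and CAMK was 0.04 as deposited, 0.18 with the sum of all rows, 0.26 without the 7 rows and 0.03 without Rn7sk as well. Relative to that median the members moved little. The Rny3 difference between CX3CL1-ct and WT minus the median was 0.44 as deposited, 0.45 with the sum of all rows and 0.47 without the 7 rows. For Gm26917 it was -0.85, -0.84 and -0.82. Scaled to the sum without the 7 rows, Rmrp passed in CX3CL1-ct against CAMK (0.47, limma, adjusted p = 0.0109) and against WT (0.31, adjusted p = 0.0471), and relative to the median these differences were 0.21 and 0.05. After scaling to the sum without the 7 rows and Rn7sk, Gm26917 and Gm42418 had an adjusted p of 0.0447 and 0.0287 in CX3CL1-ct against WT. As deposited they had 0.0784 and 0.0557. In that fit 0.370% of genes passed.

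The genes that work with these RNAs did not pass limma's threshold in any comparison. Counts at an unadjusted p under 0.05 follow in the order CX3CL1-ct against CAMK, then against WT, then CAMK against WT, beside the shares of 6.37%, 12.3% and 12.4% of all tested genes. Of 8 proteins that bind Y RNAs, 7 were tested and 0 passed (1, 0 and 1 at an unadjusted p under 0.05). Trove2, which encodes Ro60, was at 27.1 ± 3.37 FPKM in WT (SD, n = 3), 25.6 ± 2.27 in CAMK (n = 3) and 25.2 ± 0.612 in CX3CL1-ct (n = 6), and Ssb, which encodes La, at 66.1 ± 8.48, 65.6 ± 6.49 and 67.8 ± 4.49. Neither passed in CX3CL1-ct against WT (limma, adjusted p = 0.640 and 0.884). Of the 11 RNase P and RNase MRP proteins 0 passed (1, 1 and 0 unadjusted), with a median log2 difference of 0.12 between CX3CL1-ct and CAMK against 0.04 over all genes. For RNA polymerase III and its factors 0 of 30 passed (1, 4 and 2 unadjusted). Of these, 25 of 30 were above 0 in CX3CL1-ct against WT, with a median of 0.08, where 62.7% of all genes were above 0 and their median was 0.04. For RNA polymerase I and ribosomal RNA processing 0 of 29 passed (0, 1 and 0 unadjusted), with 25 above 0 in CX3CL1-ct against CAMK, where 63.2% of all genes were. Their most abundant member Npm1, which encodes nucleophosmin, differed from WT by -0.15 ± 0.09 (SE, log2) in CX3CL1-ct (limma, adjusted p = 0.519).

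Among 13 tested rows of other structural or nuclear RNAs, no row but Rn7sk was called between CX3CL1-ct and CAMK. There 0.0485% of all genes were called lower. Rn7sk is listed at 0 in CX3CL1-ct and, like Rn7s6, passed the filter only through WT and CAMK. Its comparisons with CX3CL1-ct are therefore a description and no test. Against WT, CX3CL1-ct had further rows called lower besides Rn7sk, where 0.254% of all genes were called lower. These were Snhg1, a host gene of small nucleolar RNAs (13.2 ± 1.57 against 19.6 ± 1.95 FPKM, SD; limma, adjusted p = 0.0420), and Neat1, the RNA scaffold of paraspeckles (3.69 ± 0.516 against 5.81 ± 0.718 FPKM; adjusted p = 0.0420). Neat1 was also lower in CAMK than in WT (3.33 ± 0.148 FPKM; adjusted p = 0.0397), the 1 call of the 13 there, beside 0.358% of all genes. Rnu12, of nearly the same mean level as Gm26917, was at 1222 ± 94.7 FPKM in WT, 1579 ± 216 in CAMK, with 1596 ± 175 in CX3CL1-ct, which was not called against WT (limma, adjusted p = 0.207). The abundant nuclear RNA Malat1 was at 1826 ± 283, 1600 ± 194 and 1638 ± 174 FPKM, with no call.

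By correlation of log2 values over the 12 libraries, the tested genes most like each member were named as a description, since libraries share groups and scaling. For Rny3 these were Rny1, B3glct (r = 0.91) and Sh3glb1 (r = 0.90), and for Rny1 they were Rny3, Arap2 (r = 0.92) and Asxl3 (r = 0.91). Rpph1 was most like 3110053B16Rik (r = 0.92), Lage3 (r = 0.88) and 2410018L13Rik (r = 0.87). Rmrp was most like Tmed4 (r = 0.89), H2afy (r = 0.88) and Polr3a (r = 0.87), the last encoding the largest subunit of RNA polymerase III. Gm26917 was most like Prph (r = 0.94), Irs2 (r = 0.93) and Gm10288 (r = 0.92). Gm42418 was most like Gm26917, Irs2 (r = 0.89) and Gm10288 (r = 0.86).

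Of the other rows near the top, the small nuclear and nucleolar RNA rows Gm22513, Gm22988 and Gm24265 had mean FPKM of 8941, 7581 and 5250. Snord104 had 4231 and is listed at 0 in at least 1 WT and 1 CX3CL1-ct library. Rows of small nucleolar, small nuclear and Cajal body RNAs together held 12.4% to 15.1% of the sum, with overlapping groups. Depth estimated from the FPKM of 1 fragment was 12300000 to 12900000 fragments in WT, 12300000 to 14100000 in CAMK and 12900000 to 16200000 in CX3CL1-ct. The part of depth in the results was not tested. Cx3cl1 was at 38.6 to 42.4 FPKM in WT, 34.7 to 41.6 in CAMK and 33.5 to 48.4 in CX3CL1-ct. All 8 markers of hippocampal neurons were above 0 in each library. Their sum overlapped between groups, at 335 to 472 in WT, 365 to 390 in CAMK and 250 to 427 in CX3CL1-ct, and most of it was Snap25 and Neurod6. Of the others, Zbtb20 was 60.0 to 65.8 FPKM in WT, 34.3 to 36.4 in CAMK and 24.7 to 57.2 in CX3CL1-ct. Prox1, Wfs1 and Grik4 were also lower in every CAMK than in every WT library, and in CX3CL1-ct they overlapped with WT. Of all tested genes, 8.80% had all CAMK libraries below all WT libraries. All driver libraries were below them for 1.10%, as for Zbtb20. Striatal markers summed to 83.9 and 59.6 in WT replicates 2 and 3, against 8.75 in WT replicate 1, 11.6 to 13.9 in CAMK and 9.48 to 51.9 in CX3CL1-ct. The sum of 4 meningeal markers was 18.7 to 24.7 in WT, 23.7 to 28.4 in CAMK and 28.7 to 57.2 in CX3CL1-ct, none of them at 0. Of these, Slc6a13 and Aldh1a2 were each higher in every driver library than in every WT library, as were 2.71% of all tested genes, and Dcn and Col1a1 overlapped with WT. The part of these marker differences in the results was not tested.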

How the data were processed

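Hippocampal RNA of 12 libraries was analysed from 1 table of FPKM values, which the authors deposited, with groups and replicate numbers from the sample titles. Per the submitters' processing notes the authors used TopHat, Bowtie, Cufflinks and Cuffdiff with build mm10. Versions, the scaling between libraries and the use of strand are not given in the sources used here. FPKM divides by transcript length, so values of RNAs of 102 and 112 nt depend strongly on how fragment length was modelled, and size selection of libraries can remove such RNAs.

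Values were used as deposited, as log2(FPKM + 1), a scale that understates changes of low genes. limma 3.58.1 (R 4.3.3) fitted 1 mean per group over the 12 libraries, using eBayes with a trend, for 16503 genes with FPKM of at least 1 in at least 3 libraries, and p-values were two-sided and adjusted by Benjamini-Hochberg at 0.05. Column sums were compared by exact two-sided permutation (scipy 1.17.1). All 7 genes passed the filter. Tables used pandas 2.3.3 and numpy 2.4.6 under Python 3.11.15. IDs of 29258 rows matched GENCODE M21, from which coordinates and sequences come (the sequence of Rn7s6 is not reported here), and near-identical copies were sought with blastn 2.17.0 (at least 90% identity over 80% of the length). That search found 2 copies of Rny1, 1 match of Rmrp, which is the overlapping lincRNA model at the same place, and 0 for the others. None of those found is in the table. The weight by length used exon length. Depth was estimated from the lowest values of genes of 500 to 5000 nt, assuming fragments of 180 nt.

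The members, gene lists and tests were chosen with earlier results of these data known. The text names the 7 genes, the 5 other rows highest by mean FPKM (Rn7sk among them), neighbours within 5 kb that are rows of the table, the 3 most correlated genes per member, and list members that passed or were most abundant. Trove2, Ssb, Rnu12, Snhg1 and Neat1 are among the list members, and Trove2, Ssb and Rnu12 were named after their values were seen. On simulated data for the same 16503 genes, 87, 87 and 90 of 100 genes changed 2-fold, and 96, 97 and 95 of 100 changed 4-fold, were called in the comparison of CX3CL1-ct with CAMK, that of CX3CL1-ct with WT and that of CAMK with WT. In the same order, 8, 16 and 8 unchanged genes were called. The simulated noise was normal and independent between genes, without shifts that genes share within a library. These rates therefore need not hold for the real data.

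Replicate numbers 1 to 3 occur in each group. CAMK and WT libraries of the same number had deviations that correlated by 0.236, 0.163 and 0.100 over genes, each just or clearly over 0.1, so these numbers were taken as pairs. CX3CL1-ct numbers were not, with correlations of 0.110, -0.130 and -0.091 to CAMK and 0.114, -0.062 and 0.011 to WT. The sample titles give only the numbers, so the pairs of CAMK and WT were chosen from these same values and are not known pairs. Unlike numbers correlated by at most 0.044 between CAMK and WT. They reached 0.305 for CX3CL1-ct replicate 5 with CAMK replicate 2, more than any pair taken. The main limma fit and the permutation tests did not use the pairs of CAMK and WT. The replicate block did, and it called 490 genes between CAMK and WT, against 59 in the main fit. Other pseudocounts, filters, scalings, priors, the block and leaving out each library were tried.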

Additional observations from a re-analysis of the deposited data

How the results depend on the processing

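The 7 genes kept the sign of their difference from WT under each alternative, except Rmrp in CX3CL1-ct (-0.0069 by upper quartile) and Rpph1 in CAMK (-0.033 scaled to all rows; -0.15 to 0.29 without 1 library). The near-zero differences between CX3CL1-ct and CAMK turned for Rny3 (-0.0046 by upper quartile; -0.036 to 0.097 without 1 library), Rny1 (-0.0031 without the 7 rows and Rn7sk in the sum, -0.035 by upper quartile; -0.10 to 0.093 without 1 library), Gm42418 (0.011 scaled to all rows, 0.10 without the 7 rows) and Gm26917 (-0.062 to 0.27 without 1 library). Over 25 settings, CX3CL1-ct against WT passed in 7 for Gm42418 (adjusted p 0.0146 to 0.160), in 4 for Gm26917 (0.0126 to 0.185), in 4 for Rny3 (0.0142 to 1) in 2 for Rny1 (0.0031 to 0.898) and in 1 for Rmrp (0.0471 to 1). CAMK against WT passed in 2 for Gm26917 (0.0247 to 0.278), with 0.0444 scaled to all rows, and CX3CL1-ct against CAMK in 1 for Rmrp (0.0109 to 1). Rn7s6 is left out of this tally.

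Counts of genes called, first CX3CL1-ct against CAMK, then CX3CL1-ct against WT and last CAMK against WT, were 10, 75 and 59 as deposited. They were 14, 144 and 123 without a filter, and 6, 15 and 8 at a mean FPKM of at least 5. Scaling to all rows gave 1440 and 579 for the comparisons with CX3CL1-ct, and scaling without the 7 rows 7066 and 7436. A fit of only the 2 groups compared gave 38 for CX3CL1-ct against WT. Leaving out genes with a whole group at 0, an alternative chosen after seeing the data, gave 0 for CX3CL1-ct against CAMK in limma, with 1028 at an unadjusted p under 0.05. Without 1 library the counts were 9 to 12, 26 to 158 and 21 to 153. CX3CL1-ct against WT was at 27 and 26 without WT replicates 2 and 3, 47 without CAMK replicate 3, and 40, 37, 37, 153 and 158 without CX3CL1-ct replicates 1 to 5. CAMK against WT was at 30 and 21 without WT replicates 2 and 3, 37, 30 and 24 without CAMK replicates 1 to 3, and 38, 38, 91 and 153 without CX3CL1-ct replicates 2, 3, 5 and 6. The cause was not tested.

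Under the replicate block the counts were 171, 540 and 490. Same-numbered CX3CL1-ct libraries share only a number with the others. Under that block Gm26917 and Gm42418 had adjusted p of 0.0285 and 0.0456 in CX3CL1-ct against WT, and among the 7 genes it changed only these and the Gm26917 call in CAMK. The column sum over 3 pairs differed by -0.163 and -0.080 on the log2 scale between CX3CL1-ct and CAMK or WT (exact sign-flip p = 0.25 each, the smallest it allows).

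The difference in column sum turned positive without the 7 rows and Rn7sk (3219 against CAMK, 10617 against WT). The high Rn7sk values of WT and CAMK then left their sums, and Rn7sk is listed at 0 in CX3CL1-ct. With all rows in the sum and 1 library left out, the difference was -80838 to -59950 and -39845 to -24794. The unadjusted exact permutation p rose to at most 0.0714 and 0.143 in the smaller design. The share of the 7 rows was 25.9% in WT and 30.02% in CAMK without Rn7sk in the sum, and 1.79%, 1.72% and 1.86% in WT, CAMK and CX3CL1-ct weighted by length. Without 1 library it was 22.004% to 22.6%, 25.5% to 27.8% and 30.6% to 31.1%. Counts and confidence intervals cannot be had from FPKM, so zeros have no detection limit here.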
